A study of Homo sapiens with 6 samples.

Results

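Transcripts of 10 proteins that fold, oxidise or hold secretory proteins in the lumen of the endoplasmic reticulum (ER) were followed in OVCAR5 cells treated with SpiD7. The genes were chosen by name, with earlier results of these data known, so that counts of them beside all genes are descriptions. They are the rows of the deposited expression table for HSPA5, HSP90B1, HYOU1, DNAJB11, DNAJC3, PDIA4, PDIA6, SDF2L1, CRELD2 and MANF, which are 10 of 29982 gene symbols. All 10 are protein-coding, each has 1 row, and all 10 passed the filter used throughout, a mean of at least 1 FPKM over the libraries, which 13287 symbols passed. FPKM stands for fragments per length of transcript and per number of mapped reads, so that levels of different genes are on a scale per transcript length.

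OVCAR5 is an established human ovarian cancer cell line, and SpiD7 is a spirocyclic dimer that the study used at 10 μM, with dimethyl sulfoxide (DMSO) as the vehicle. There were 6 libraries, of which 2 came from DMSO-treated cells, 2 from cells treated with SpiD7 for 2 h, 1 from cells treated for 6 h and 1 from cells treated for 12 h. The labels give no duration for DMSO and do not say whether replicates were separate cultures, so that a p-value measures only the spread between these libraries. The same DMSO libraries were set against every time point, so that SpiD7 and time in culture cannot be told apart. The second library of DMSO and of 2 h was recovered from the authors' mean of each pair, as described with the processing, and differences at 6 h and 12 h, which rest on 1 library each, were not tested. The first library of DMSO and of 2 h and the 6 h and 12 h libraries are deposited values, those of 6 h and 12 h after a rescaling described with the processing.

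The ER lumen is an oxidising, calcium-rich space where secreted and membrane proteins acquire disulfide bonds and sugars. When unfolded chains accumulate there, the sensors IRE1, PERK and ATF6 start the unfolded protein response, and cleaved ATF6 and spliced XBP1 raise transcription of many ER chaperone genes. HSPA5, also called BiP or GRP78, is the HSP70 of the ER and is also bound to the sensors in unstressed cells. The other genes act around it as its nucleotide exchange factor, its J-domain cochaperones, the ER HSP90, disulfide isomerases, or small proteins secreted or retained under ER stress.

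The cells carried RNA of an epithelial line. EPCAM lay between 77.4 and 86.5 FPKM in the 6 libraries, and the 5 epithelial markers summed to 2942 to 4230 FPKM. Of 5 ovarian and Mullerian markers only PAX8 (1.64 to 2.12 FPKM) and MSLN (2.95 to 3.59 FPKM) passed the filter, whereas WT1, MUC16 and ESR1 did not. The T cell gene CD3E was listed at 0 in all 6 libraries. Both recovered libraries stood apart from the others. MIR6723 took 25.0% and 21.8% of their summed FPKM, against 5.04% to 9.19% in the other 4, and 3 endothelial markers summed to 11.5 and 8.31 FPKM in them, nearly all of it PECAM1, against 0.441 to 1.20 FPKM in the rest. The 3 leukocyte markers, nearly all CD14, summed to 9.37 FPKM at 12 h and to 3.12 to 5.68 FPKM in the other libraries, and the 3 fibroblast markers to 0.689 to 2.33 FPKM. Beside this, all 10 ER genes were higher in the recovered library than in the first one, both in DMSO (45.0% of all genes tested were) and at 2 h (44.6%). The part of these library differences in the results was not tested, and the later values of the 10 genes are therefore given against each DMSO library.

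The promoter sequences were searched for the exact letters of elements that the unfolded protein response is known to use. The ER stress response element (ERSE) is CCAAT followed by CCACG with 9 bases between them, and ERSE-II is ATTGG followed by CCACG with 1 base between them. Both were searched on both strands in the RefSeq promoters of GRCh38.p14, from 250 bases before to 50 bases after each start, and all 10 genes had a promoter there. ERSE was found in HSPA5, HSP90B1, PDIA6 and CRELD2, which makes 4 of 10 genes, against 0.161% of the 9303 tested genes with a promoter and 0.0769% of 35116 promoters. It was also found in CALR, CANX and SERP1, 3 of 17 other ER foldases and chaperones with a promoter, and in XBP1. ERSE-II was found in HYOU1 and SDF2L1, 2 of 10 genes, against 0.15% of the tested genes and 0.0541% of promoters, and in HERPUD1. Elements and genes were both picked for a known part in the unfolded protein response, so that these shares are not a test. The stretches that hold these matches are printed 5′ to 3′ on the strand of the gene, with the CCAAT and CCACG parts, or their reverse complements ATTGG and CGTGG, in capitals.
HSPA5, chr9:125241381-125241419, minus strand: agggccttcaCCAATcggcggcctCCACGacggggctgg
HSP90B1, chr12:103930206-103930349, plus strand: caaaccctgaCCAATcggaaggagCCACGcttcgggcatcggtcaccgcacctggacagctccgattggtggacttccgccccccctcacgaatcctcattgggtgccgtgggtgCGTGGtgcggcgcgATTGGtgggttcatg
PDIA6, chr2:10812843-10812881, minus strand: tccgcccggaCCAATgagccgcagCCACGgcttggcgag
CRELD2, chr22:49918544-49918582, plus strand: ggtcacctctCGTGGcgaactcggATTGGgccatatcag
HYOU1, chr11:119057264-119057400, minus strand: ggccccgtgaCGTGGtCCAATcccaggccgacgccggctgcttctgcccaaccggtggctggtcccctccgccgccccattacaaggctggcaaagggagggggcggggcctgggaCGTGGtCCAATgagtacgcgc
SDF2L1, chr22:21642104-21642134, plus strand: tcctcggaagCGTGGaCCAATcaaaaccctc

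HSP90B1 held 2 ERSE matches, 1 on each strand, and HYOU1 held 2 ERSE-II matches. The first of the HYOU1 matches overlaps the letters TGACGTGG, the core of the unfolded protein response element, which 1.20% of the tested genes and 0.729% of promoters held and no other of the 10 genes did. DNAJB11, DNAJC3, PDIA4 and MANF had neither ERSE nor ERSE-II in this window, which says only that these letters are not in it. All 10 genes held the letters CCAAT in at least 1 promoter, as did 43.2% of the tested genes and 34.6% of all promoters. The heat shock element was searched as GAA, TTC and GAA with 2 bases between each. It was found in 0 of the 10 genes and in 5 of 12 cytosolic chaperone genes, beside 0.484% of the tested genes and 0.490% of promoters. At so low a share, its absence says nothing particular about the 10 genes. Of 5 mitochondrial chaperone genes with a promoter, 1 held it, HSPD1. The other ER foldases, ER-associated degradation genes, sensors and transcription factors, and ATF4 and CHOP targets had 0 matches. A match is a description of the sequence and not a binding site.

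HSPA5, the ER HSP70 (chr9:125234847-125241387 in the deposited hg38 loci), showed the largest difference of the 10 genes. Its level was 197 FPKM in the first DMSO library and 337 FPKM in the second, 229 and 354 FPKM in the 2 h libraries, 638 FPKM at 6 h and 1378 FPKM at 12 h. The 2 h and DMSO libraries overlapped, whereas the 6 h and 12 h libraries stood above both DMSO libraries. Against the mean of the DMSO libraries, on the log2(FPKM + 0.1) scale used for all differences, HSPA5 was 1.31 higher at 6 h and 2.42 higher at 12 h, the latter a 5.34-fold difference. The 12 h library was 2.80 higher than the first DMSO library and 2.03 higher than the second, and the DMSO libraries differed from each other by 0.77. HSPA5 ranked 200 from the top of 13287 genes by its difference at 12 h. These are bulk values, in which more cells with a transcript and more RNA per cell cannot be told apart.

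HYOU1, an HSP110-type nucleotide exchange factor for HSPA5 (chr11:119044184-119057240), had the smallest difference of the 10 genes at 12 h. It measured 74.6 and 88.9 FPKM in DMSO, 70.0 and 80.9 FPKM at 2 h, 84.2 FPKM at 6 h and 92.2 FPKM at 12 h. The 6 h value lay within the DMSO range and the 12 h value just above it, at 0.05 over the second DMSO library. HSPA5 was 2.65 to 4.38 times as abundant as HYOU1 in the DMSO and 2 h libraries, 7.58 times at 6 h and 14.9 times at 12 h.

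DNAJB11, a soluble J-domain protein that delivers substrates to HSPA5 (chr3:186570677-186585800), had the tightest DMSO pair. Its values were 160 and 171 FPKM in DMSO, 178 and 194 FPKM at 2 h, 233 FPKM at 6 h and 312 FPKM at 12 h. It was the only gene of the 10 with both 2 h libraries above both DMSO libraries, and 13.7% of all genes showed that order. At 12 h DNAJB11 was 0.96 and 0.87 higher than the first and the second DMSO library, which differed by 0.10. DNAJB11 shares exon positions with TBCCD1 on the other strand, which had a mean of 12.7 FPKM, and a library kit that does not mark strand cannot tell their reads apart.

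DNAJC3, also known as p58IPK, is the other J-domain partner of HSPA5 in the set and was the least abundant gene in every library (chr13:95677138-95794989). It measured 11.0 and 13.1 FPKM in DMSO, 9.96 and 15.0 FPKM at 2 h, 15.1 FPKM at 6 h and 22.6 FPKM at 12 h. The 2 h libraries fell on either side of the DMSO range, and the 6 h library was nearly level with the higher of them. The 12 h library was 1.03 and 0.78 above the DMSO libraries.

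HSP90B1, the HSP90 of the ER, also called GRP94 (chr12:103930333-103947930), followed HSPA5 in size of difference. Its level was 288 and 473 FPKM in DMSO, 313 and 502 FPKM at 2 h, 527 FPKM at 6 h and 970 FPKM at 12 h. The 6 h library exceeded the recovered 2 h library by little, while the 12 h library stood clear of all the others, 1.75 and 1.03 above the DMSO libraries. HSP90B1 was more abundant than HSPA5 in all 4 DMSO and 2 h libraries and less abundant at 6 h and 12 h. The ratio of HSPA5 to HSP90B1 stayed between 0.685 and 0.733 in the first 4 libraries, although their levels differed by up to 0.77 between replicates, and was 1.21 at 6 h and 1.42 at 12 h. The row of MIR3652, a microRNA within HSP90B1, repeats the values of HSP90B1 exactly, so that both symbols carry the same measurement. C12orf73 overlaps HSP90B1 on the other strand, with a mean of 2.93 FPKM.

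**Figure D1:**
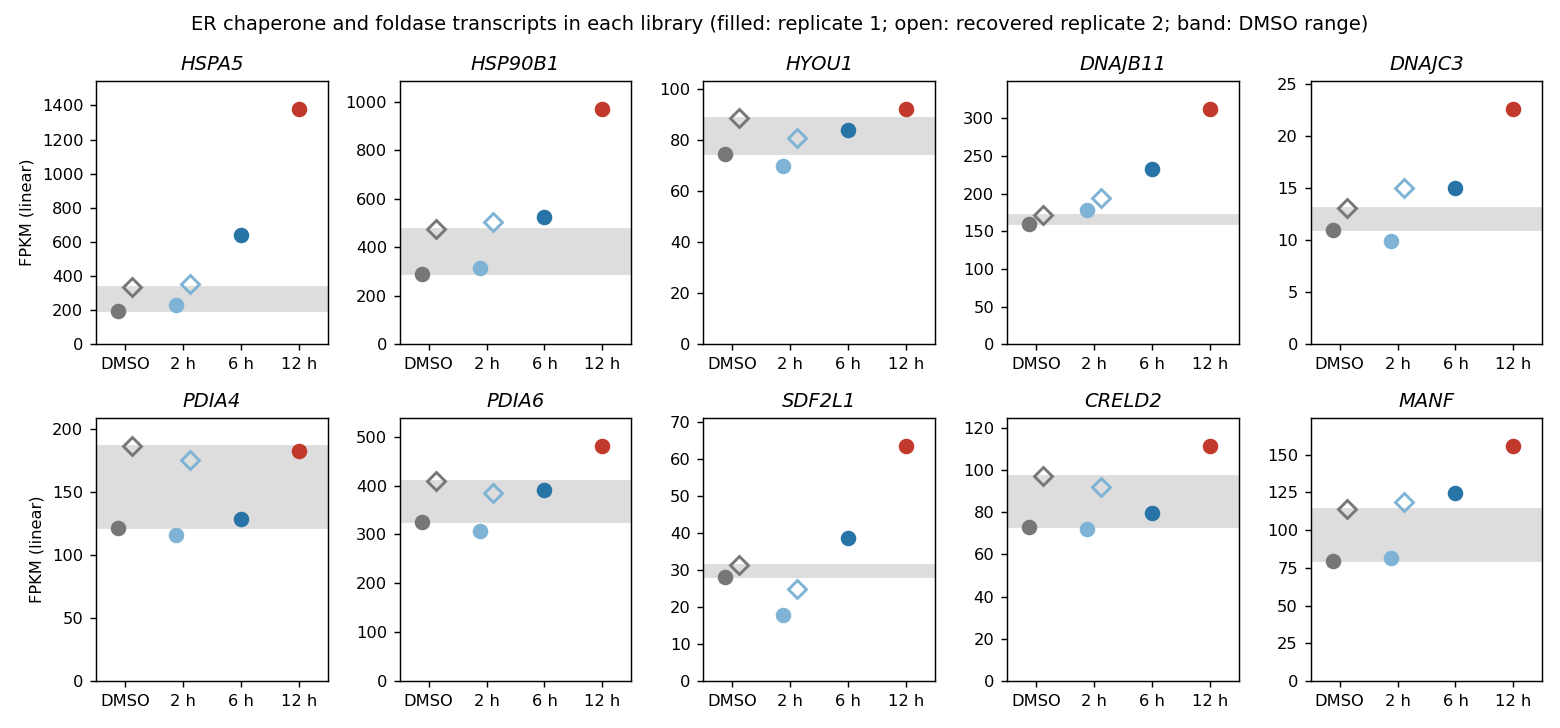
Level of each of the 10 genes in FPKM on a linear axis from 0, by group (DMSO, 2 h, 6 h and 12 h of SpiD7), where a filled point is a deposited first or single library, an open diamond is a recovered second library and the grey band is the range of the DMSO libraries. The 12 h point lies above the band for 9 of 10 genes and just inside it for PDIA4, and HSPA5 reaches 1378 FPKM.

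The disulfide isomerases differed less. PDIA4, also called ERp72 (chr7:149003050-149028690), measured 121 and 186 FPKM in DMSO, 116 and 175 FPKM at 2 h, 128 FPKM at 6 h and 182 FPKM at 12 h. Neither later library left the DMSO range, and PDIA4 was the only gene of the 10 for which the 12 h library was below a DMSO library, by 0.03. HSPA5 was 1.63 to 2.02 times as abundant as PDIA4 in the DMSO and 2 h libraries and 7.56 times as abundant at 12 h.

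PDIA6, also called P5 (chr2:10721648-10837977), was the most abundant of the genes in the first DMSO library. It measured 325 and 410 FPKM in DMSO, 308 and 386 FPKM at 2 h, 391 FPKM at 6 h and 481 FPKM at 12 h. The 6 h library lay within the DMSO range, and the 12 h library was 0.57 and 0.23 above the DMSO libraries, which differed by 0.34. The ratio of PDIA6 to PDIA3, another disulfide isomerase of the lumen, stayed between 2.22 and 2.45 in all 6 libraries. The deposited locus of PDIA6 also covers ATP6V1C2, which overlaps it on the other strand with a mean of 0.449 FPKM.

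SDF2L1, a small partner of DNAJB11 in the ER (chr22:21628088-21644728), was the gene whose order at 2 h ran opposite to that at 12 h. It measured 27.9 and 31.4 FPKM in DMSO, 17.9 and 24.7 FPKM at 2 h, 38.7 FPKM at 6 h and 63.5 FPKM at 12 h. Both 2 h libraries were below both DMSO libraries, an order seen in 8.10% of all genes, and both later libraries were above them. The 12 h library was 1.18 and 1.02 above the DMSO libraries, which differed by 0.17. SDF2, its paralogue, measured 29.7 to 30.3 FPKM in DMSO and 34.8 FPKM at 12 h, so that the ratio of SDF2L1 to SDF2 was 0.921 and 1.05 in the DMSO libraries, lower in those of 2 h (0.685 and 0.745) and higher in the 6 h (1.23) and 12 h (1.83) libraries. The deposited locus of SDF2L1 begins at 21628088, before the start of the gene in GENCODE at 21642261. Whether reads of other transcripts entered its values was not tested.

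CRELD2 and MANF encode small ER proteins known to be induced under ER stress, MANF being a secreted neurotrophic factor that also binds HSPA5. CRELD2 (chr22:49918629-49927540) measured 72.9 and 97.1 FPKM in DMSO, 72.2 and 91.8 FPKM at 2 h, 79.8 FPKM at 6 h and 111 FPKM at 12 h. Its 12 h library lay 0.20 above the second DMSO library, the 6 h library lay within the DMSO range, and the first 2 h library was just below it. CRELD2 overlaps exons of ALG12 on the other strand, which had a mean of 43.1 FPKM. MANF (chr3:51385260-51389397) measured 79.5 and 114 FPKM in DMSO, 81.2 and 119 FPKM at 2 h, 124 FPKM at 6 h and 156 FPKM at 12 h. Both later MANF libraries were above both DMSO libraries, by 0.97 and 0.45 at 12 h. Their relatives differed from them. CRELD1 measured 5.43 and 9.73 FPKM in DMSO and 6.66 FPKM at 12 h, and CDNF, the paralogue of MANF, did not pass the filter.

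After 2 h of SpiD7, the only time point with replicates, 0 of the 10 genes passed an adjusted p of 0.05 in limma, and 0 passed an unadjusted p of 0.05. Among all genes, 0.0226% were called, and 2.84% had an unadjusted p under 0.05. The differences from DMSO ranged from -0.49 for SDF2L1 (SE 0.24, limma adjusted p = 1) to 0.17 for DNAJB11 (SE 0.16, limma adjusted p = 1). HSPA5 differed by 0.14 with an SE of 0.41, an error that spans a difference in either direction and includes the difference between replicates. By replicate number, HSPA5 was 0.22 and 0.07 higher at 2 h than in DMSO. With that number as a block, its SE was 0.08 (limma adjusted p = 0.461 with the block). None of the 10 genes was more than 2-fold higher (2.32% of all genes) or lower (0.662%). Of the 10, 5 were above the DMSO mean (48.1% of all genes) and 5 below it. That number above rested on single libraries, being 1 without the first DMSO library, 9 without the second, 8 without the first 2 h library and 1 without the second. With all 4 libraries their median difference was -0.01, as was that of all genes. The median of the 10 genes was -0.25 without the first DMSO library, 0.19 without the second, 0.22 without the first 2 h library and -0.23 without the second. A p that misses the threshold does not show that the genes stayed level, and the test had 2 libraries in each group. In the simulation with a spread drawn per gene, described with the processing, it called 0 of 200 genes changed 4-fold. The absence of calls among the 10 genes therefore decides nothing.

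At 6 h, 1 of 10 genes, HSPA5, was more than 2-fold higher than the DMSO mean, where 5.66% of all genes were, and 0 were 2-fold lower, where 3.10% were. Against the first DMSO library it was again HSPA5 alone that passed 2-fold (6.28% of all genes), and against the second no gene did (7.76%), HSPA5 being 0.92 higher. Above the DMSO mean were 8 of 10, beside 53.2% of all genes. The median of the 10 genes was 0.35, beside 0.03 for all genes. It was 0.14 without the first DMSO library, beside 0.08 for all genes, and 0.46 without the second, beside -0.02. HSPA5, HSP90B1, DNAJB11, DNAJC3, SDF2L1 and MANF stood above both DMSO libraries, which makes 6 of 10 beside 31.6% of all genes. None was below both, where 29.2% of genes were. For HSPA5, DNAJB11, DNAJC3 and SDF2L1, 4 of 10 beside 19.1% of all genes, the difference was also larger than that between the DMSO libraries.

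At 12 h, HSPA5, HSP90B1 and SDF2L1 were more than 2-fold higher than the DMSO mean, which makes 3 of 10 beside 6.48% of all genes, and 0 were 2-fold lower, where 3.76% were. All 10 were above the DMSO mean, where 45.2% of genes were, and none was below both DMSO libraries, where 35.6% were. The median of the 10 genes was 0.81, beside -0.05 for all genes. All genes but PDIA4 stood above both DMSO libraries, 9 of 10 beside 30.1% of all genes, and the same 9 had their highest value of all 6 libraries at 12 h, which 18.3% of genes did. The difference exceeded that between the DMSO libraries for 7 of 10 genes, beside 20.8% of all genes. It did not for HYOU1, PDIA4 and CRELD2. Against the first DMSO library alone, which needs no recovered value, 4 of 10 genes passed 2-fold (8.21% of all genes), the fourth being DNAJC3. Against the second library alone, 3 did (7.01%), HSP90B1 and SDF2L1 by little, at 1.03 and 1.02.

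**Figure D2:**
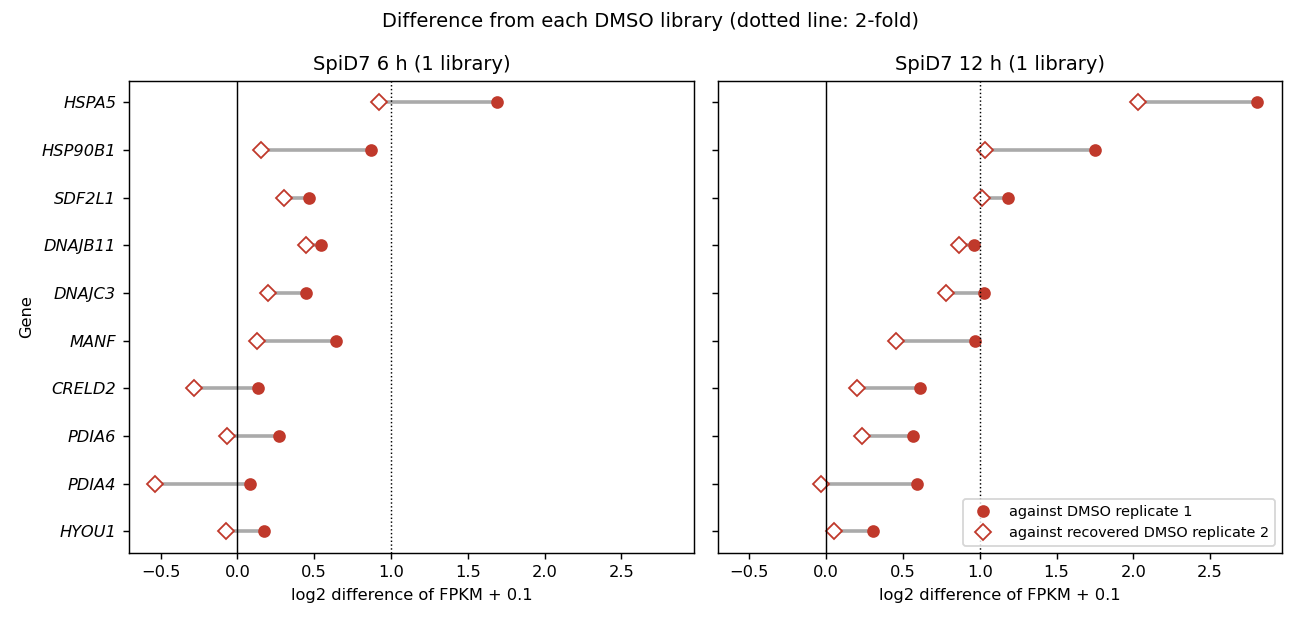
Difference of the 6 h library (left) and the 12 h library (right) from the first DMSO library (filled points) and the recovered second one (open diamonds), on the log2(FPKM + 0.1) scale, for the 10 genes in order of their difference at 12 h. The solid line marks no difference and the dotted line 2-fold, and at 12 h only HSPA5, HSP90B1 and SDF2L1 lie past 2-fold against both DMSO libraries, while PDIA4 is at -0.03 against the second.

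Between time points, 8 of 10 genes were higher at 6 h than the mean at 2 h (52.5% of all genes) and 10 of 10 were higher at 12 h than at 6 h (42.8%). The same 8, all but PDIA4 and CRELD2, were higher at each step, beside 18.9% of all genes. HSPA5 gained 1.16 from 2 h to 6 h and 1.11 from 6 h to 12 h, whereas HSP90B1 gained 0.41 and then 0.88. SDF2L1 gained 0.88 in the first of these steps and 0.71 in the second. MANF gained nearly the same in both, 0.34 and 0.33, and CRELD2 gained only in the second, -0.03 and then 0.48. Each step ends on 1 library, and these are values without a test.

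Together the 10 genes summed to 1357 and 1921 FPKM in DMSO, 1395 and 1942 FPKM at 2 h, 2259 FPKM at 6 h and 3769 FPKM at 12 h. As a share of all FPKM without MIR6723, that was 0.180% and 0.239% for the DMSO libraries, 0.182% and 0.283% for those of 2 h, 0.243% for the 6 h library and 0.381% for the 12 h library. The 12 h share was the highest of the 6. The 6 h share was below that of the recovered 2 h library without MIR6723 and above it with MIR6723 kept, 0.231% and 0.221% of all FPKM. HSPA5 made up 14.5% to 18.2% of the sum in the DMSO and 2 h libraries, 28.2% at 6 h and 36.6% at 12 h, and moved from the third most abundant of the 10 genes to the first. PDIA6 made up 19.9% to 23.9% of the sum in the first 4 libraries, 17.3% at 6 h and 12.8% at 12 h, although its own FPKM was highest at 12 h. The share of HSP90B1 stayed between 21.2% and 25.9% in all 6 libraries. The order of the less abundant genes hardly moved, with MANF in the sixth place, SDF2L1 in the ninth and DNAJC3 in the tenth throughout.

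**Figure D3:**
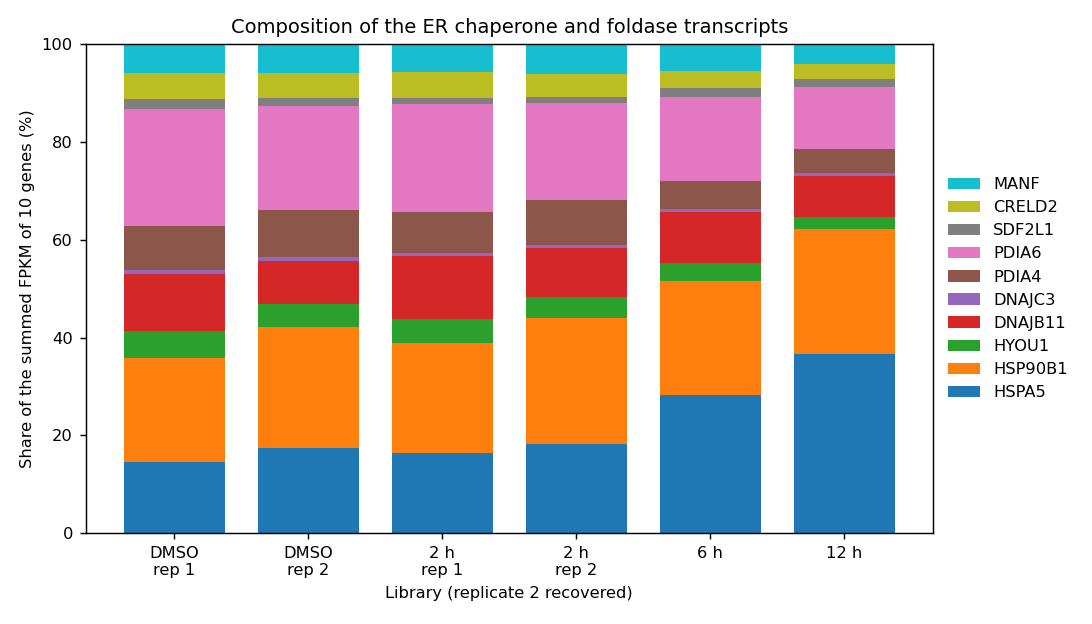
Share of each gene in the summed FPKM of the 10 genes, in percent, as stacked bars for each of the 6 libraries. HSPA5, at the base, widens from 14.5% in the first DMSO library to 36.6% at 12 h, while PDIA6 narrows from 23.9% to 12.8%.

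The other genes of the ER folding pathway were read from lists chosen for their known roles, also with earlier results of these data known. Among 21 tested other ER foldases and chaperones, the median difference at 12 h was 0.09 (0.20 from the first DMSO library and -0.10 from the second), and 1, DNAJB9, was more than 2-fold higher than the DMSO mean. Against the first library alone, 2 were. DNAJB9, another J-domain protein and an inhibitor of IRE1, measured 3.17 and 8.66 FPKM in DMSO, 12.0 and 21.1 FPKM at 2 h, 28.0 FPKM at 6 h and 28.7 FPKM at 12 h, so that it was above both DMSO libraries already at 2 h, unlike 9 of the 10 genes above. The next highest was ERO1LB, an oxidase for the disulfide isomerases, at 0.76. It measured 0.963 and 3.93 FPKM in DMSO and 3.39 FPKM at 12 h, inside the DMSO range, 1.72 above the first library and 0.21 below the second (-0.21). The lowest was DNAJC10, an ER disulfide reductase, at -0.68. P4HB, the main disulfide isomerase, was 484 and 619 FPKM in DMSO and 520 FPKM at 12 h, and PDIA3 was 135 and 169 FPKM in DMSO and 208 FPKM at 12 h.

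The list of ER-associated degradation genes had a median of 0.07 over 16 genes tested at 12 h, 0.22 from the first DMSO library and -0.10 from the second. HERPUD1, a membrane protein of the degradation complex, was the only one past 2-fold, with 14.3 and 33.2 FPKM in DMSO, 50.7 and 79.7 FPKM at 2 h, 248 FPKM at 6 h and 350 FPKM at 12 h. At 12 h it was 4.60 and 3.39 above the first and the second DMSO library, more than HSPA5 was. VIMP, a membrane adaptor of the same machinery, was 0.76 higher and EDEM3, a mannosidase, 0.48 lower (-0.48). Among the 12 sensors and transcription factors tested, the median was 0.08 and 3 were more than 2-fold higher than the DMSO mean. That number rested on the DMSO library, being 5 against the first alone (median 0.42) and 1 against the second alone (median 0.048). DDIT3, the factor CHOP, was 2.29 higher than the DMSO mean at 12 h, by 3.15 and 1.42 against the first and the second library. XBP1 was 1.38 higher than the mean, by 2.02 and 0.73 against the libraries, whereas ATF6 was the lowest, at -0.77, with 8.29 and 8.03 FPKM in DMSO and 4.74 FPKM at 12 h. The table gives the total RNA of XBP1 and ATF6, not splicing or cleavage.

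The 7 ATF4 and CHOP targets had a median of 2.74 at 12 h, but 3.72 from the first DMSO library and 1.76 from the second. SESN2 was highest at 3.97, then CHAC1 at 3.21, and ASNS was lowest at 0.96. Past 2-fold were 6 against the DMSO mean, 6 against the first library and 5 against the second. One of those past it against the mean, ATF3, measured 1.06 and 99.4 FPKM in DMSO, 46.0 and 80.2 FPKM at 2 h and 31.9 FPKM at 12 h, so that it was higher than the first DMSO library and lower than the second in all of them. ATF3 is named here after its values were seen. At 2 h, 4 of the 7, ATF3 among them, were more than 2-fold above the DMSO mean, beside 2.32% of all genes. In limma 0 of the 7 were called (0.0226% of all genes), with 2 at an unadjusted p under 0.05 (2.84%).

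In the other compartments, all 12 cytosolic chaperones were more than 2-fold higher than the DMSO mean at 12 h, 9 against the first library alone and 12 against the second, with a median of 2.76 (2.55 and 2.87 against the libraries). HSPA6 was highest at 11.81, from DMSO values under 1 FPKM, then HSPA1B at 5.31, and HSPA4 was lowest at 1.08. At 2 h, 6 of the 12 were more than 2-fold above the DMSO mean (2.32% of all genes). In limma 0 of the 12 were called at 2 h, with 7 at an unadjusted p under 0.05 (2.84% of all genes). The 6 mitochondrial chaperones had a median of 0.68, but 0.43 from the first DMSO library and 0.92 from the second, with HSPD1 at 1.52, HSPE1 at 1.39 and TRAP1 at -0.40. Ratios of the ER genes to their cytosolic and mitochondrial relatives did not all move one way. All 10 ER genes were above the DMSO mean at 12 h, while the cytosolic DNAJB1 and HSPH1 were 3.70 and 3.24 above it. DNAJB11 was more abundant than DNAJB1 in both DMSO libraries and less abundant in every SpiD7 library. The ratio of DNAJB11 to the cytosolic DNAJB1 was 1.51 and 1.35 with the vehicle, 0.343 and 0.312 after 2 h, 0.165 after 6 h and 0.206 after 12 h. The ratio of HYOU1 to its cytosolic relative HSPH1 was 0.715 and 1.76 in DMSO and 0.134 at 12 h. For HSPA5 and the cytosolic HSPA8, it was 0.138 and 0.348 in DMSO and 0.470 at 12 h, and for HSPA5 and the mitochondrial HSPA9, 0.757 and 2.11 in DMSO and 4.66 at 12 h. The ratio of HSP90B1 to HSP90AA1 was 0.187 and 0.664 in DMSO and 0.392 at 12 h, inside the DMSO range, and that of HSP90B1 to TRAP1 was 2.00 and 5.52 in DMSO and 11.5 at 12 h. These ratios differ between the DMSO libraries, in which 10 of 12 cytosolic and all 6 mitochondrial chaperones were lower in the second DMSO library than in the first, the reverse of the 10 ER genes.

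**Figure D4:**
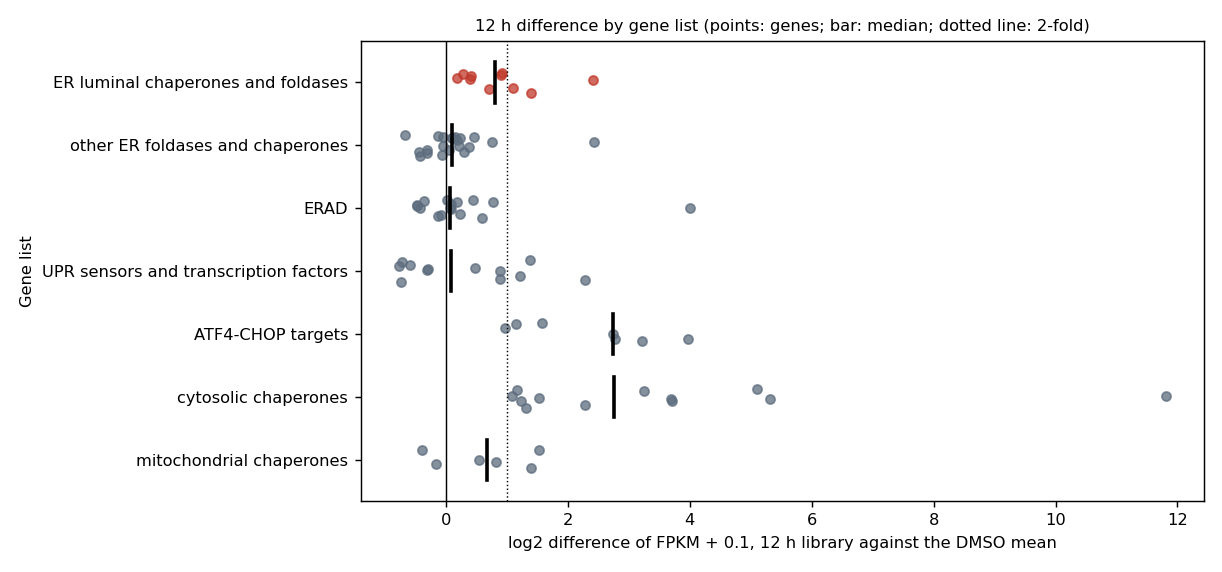
Difference of the 12 h library from the DMSO mean on the log2(FPKM + 0.1) scale (horizontal axis) for each tested gene of 7 lists, with a bar at the median, a solid line at no difference and a dotted line at 2-fold. The 10 ER chaperones and foldases (red, median 0.81) all lie above 0, the other ER lists have medians near 0 (0.07 to 0.09), and the cytosolic chaperones all lie past 2-fold of the DMSO mean.

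The genes outside the set whose profile over the 6 libraries was most like the mean profile of the 10 were LAPTM4A (Pearson r = 0.998), SYVN1 (0.997), RPSA (0.997), C12orf57 (0.989) and MIR3652 (0.988), out of 7173 genes with a mean of at least 10 FPKM. MIR3652 repeats HSP90B1, and the 6 libraries share the replicate difference described above, so that this is a description of these libraries. SYVN1, the ubiquitin ligase HRD1 of ER-associated degradation, measured 12.4 and 16.7 FPKM in DMSO, 12.2 and 15.7 FPKM at 2 h, 16.1 FPKM at 6 h and 21.8 FPKM at 12 h. LAPTM4A, a lysosomal membrane protein, was 0.26 higher than the DMSO mean at 12 h, RPSA, a ribosomal protein, 0.24 higher, C12orf57 0.48 higher and SYVN1 0.60 higher. The measure of likeness does not use the size of a difference.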

How the data were processed

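Reads (single-end) were trimmed by the authors in Trim Galore, mapped by TopHat 2.0.8 and quantified and compared by Cufflinks and Cuffdiff 2.1.1. The methods name a mouse build, whereas the deposited loci are those of hg38. The deposited table holds an FPKM value for each side of 4 comparisons and no read counts, so that depth is unknown and no counting error is given. Their fold changes, p-values and q-values were not used. All value columns could be assigned to a sample or a group, with 0 left over.

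The columns named for replicate 2 were read as the authors' means of a group, since none of 18195 rows above 0 in the first DMSO library was at 0 in the column of its group. Replicate 2 was recovered by subtracting the first library at its weight, 0.526 for DMSO and 0.509 for 2 h, taken from 811 and 966 rows at the lower limit. The remainder was divided by the same weight, so that both libraries of a group count equally, and the deposited means were scaled by it too. This reading was chosen after the data were seen, and merged reads would give such columns too, perhaps with unequal weights. Unequal weights were not tried, and would shift all values of a second library by 1 factor. Small margins over the second DMSO library rest on this choice, such as 0.05 for HYOU1 at 12 h. Libraries of the 6 h and 12 h comparisons were brought to the first comparison by the shared DMSO library (0.972 and 0.994). Rows of a symbol were summed, genes averaging at least 1 FPKM were kept, and values were taken as log2(FPKM + 0.1).

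The 2 h and DMSO libraries were compared with limma 3.58.1 in R 4.3.3, with Benjamini-Hochberg adjustment over 13287 genes. The step was tested on simulated data for this comparison: with equal spread for all genes, 200 genes changed 4-fold gave 214 calls and 100% of them were recovered, and with a spread drawn per gene 0 were called. The genes, lists and named-gene rule were chosen with earlier results of these data known. Named were the 10 genes, the 2 highest and the lowest gene of each other list at 12 h, their paralogues in other compartments, and the 5 genes of most similar profile. Marker genes and MIR6723 were named as checks. Gene overlaps came from GENCODE 29. Tables were handled with Python 3.11.15, pandas 2.3.3 and numpy 2.4.6. Alternatives were a replicate block, median-ratio scaling, a pseudocount of 1, no filter, an intensity trend, the highest row of a symbol, deposited means without recovery, and leaving out each library.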

Additional observations from a re-analysis of the deposited data

Results flagged for a closer look

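HYOU1 and SDF2L1 were below the DMSO mean in both 2 h libraries and above it in both later libraries, and this difference between time points was not tested, 6 h and 12 h having 1 library each. For SDF2L1, the 2 h libraries were at -0.72 and -0.26 on the log2 scale, the 6 h library at 0.38 and the 12 h library at 1.10. For HYOU1, the 2 h libraries were at -0.22 and -0.01, the 6 h library at 0.049 and the 12 h library at 0.18, all within 0.25, the difference between the DMSO libraries. The sign of HYOU1 at 6 h turned with the DMSO library used, 0.18 against the first and -0.08 against the second, whereas SDF2L1 kept its signs against either.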

How the results depend on the processing

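The number of all genes called by limma at 2 h was 3, and it was 1 with median-ratio scaling, 1 with a pseudocount of 1, 0 without a filter on low values and 5 with an intensity trend. Leaving out a library gave 0 to 21 calls, with 12 without the first DMSO library, 20 without the second, 0 without the first 2 h library and 21 without the second. The lone library is then assumed to vary like the other group. With the replicate number as a block, 0 genes were called, 1874 had an unadjusted p under 0.05, and 1 of the 10 genes, SDF2L1, was among them, against 0 without the block (limma adjusted p = 0.347 with the block). The deviations of same-numbered libraries had a correlation of 0.37 over genes, and only 2 pairs exist, so that the numbers are not taken as pairs. None of these alternatives called 1 of the 10 genes at 2 h.

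The number of the 10 genes past 2-fold at 6 h was 1, and leaving out a DMSO library gave 0 to 1. At 12 h it was 3, and leaving out a DMSO library gave 3 to 4. The median of the 10 genes was 0.14 to 0.46 at 6 h and 0.62 to 0.97 at 12 h with either DMSO library left out, and 0.34 and 0.79 with the deposited means. Of 253 other values computed under the alternatives, 245 moved by less than the spread between the DMSO libraries or within 1.5 times a count. The other 8 moved further. These counts do not measure stability, since many of the outcomes were fixed in advance. Leaving out a DMSO library always moves a gene by less than this spread, taken as a standard deviation. The highest row and no filter cannot move a gene that has 1 row and passed the filter. At 2 h, DNAJB11 and SDF2L1 kept their sign under all alternatives tried. The other 8 genes did not when a library was left out, which also unbalances the replicates. DNAJC3 also turned with median-ratio scaling, to -0.006. The sign at 12 h turned for PDIA4 alone, to -0.03 without the first DMSO library, and at 6 h for HYOU1, PDIA4, PDIA6 and CRELD2 when 1 DMSO library was left out.

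Depth is unknown, 6 h and 12 h have no replicates, and every value of a second library rests on the recovery step.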
